A study of Homo sapiens with 45 samples.

Results

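The genes described here are 10 of the 29159 in the count tables: the retinoic acid receptors *RARA*, *RARB* and *RARG*, the retinoid X receptors *RXRA* and *RXRG*, the cellular retinoic acid binding proteins *CRABP1* and *CRABP2*, and the transcription factors *SOX4*, *MEIS1* and *MEIS2*. They were chosen by symbol, with earlier results of these data known, and all 10 are in the tables of all 3 lines. RNA was sequenced from 3 established human neuroblastoma lines with adrenergic identity, grown in medium with serum and no added retinoic acid. Treated cells received 1 μM palbociclib dissolved in DMSO, which blocks the cell cycle kinases CDK4 and CDK6. Control cells were not given it, and the sources used here do not say whether they received DMSO alone. Treatment lasted 24 h, or a longer time that was 7 days for SK-N-BE(2)C (BE2C in the sample titles and below) but 5 days for IMR-32 and for SH-SY5Y. There were 5 replicates in each of 9 groups, so 45 libraries. BE2C is *MYCN* amplified, IMR-32 is *MYCN* amplified with *MEIS1* also amplified, and SH-SY5Y carries mutant *ALK*. Since control cells were harvested alongside the 24 h cells, palbociclib and time in culture cannot be told apart at the longer time, and neither can line and treatment length (7 or 5 days). Samples given retinoic acid were not analysed here.

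Retinoic acid, the active form of vitamin A, acts through heterodimers of an RAR with an RXR, which sit on DNA at paired copies of a hexamer. Without ligand the pair holds corepressors such as NCOR1, and with ligand it exchanges them for coactivators. CRABP2 carries retinoic acid to the receptors in the nucleus, while CRABP1 holds it in the cytoplasm and is linked to its breakdown. Retinoic acid drives neuronal differentiation of neuroblastoma cells and is given to patients as maintenance therapy. MEIS1 and MEIS2 are homeodomain proteins of the TALE class that bind DNA beside HOX and PBX proteins, and SOX4 is a factor of developing sympathetic neurons. SOX4 and MEIS1 belong to the circuit of transcription factors known as retino-sympathetic.

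The receptor genes include a known target of the receptors themselves, so the *RARB* promoter is shown first. The hexamer AGGTCA was searched for with its variants AGTTCA as well as GGGTCA and also GGTTCA, on both strands. A pair of them in the same direction with 5 bases between was looked for in 35116 RefSeq windows of 300 bases around transcription starts (GRCh38.p14, 250 bases before to 50 after). Such a pair was in 31 windows, or 0.0883%. Of the 17 windows of the 10 genes, 1 held it, that of *RARB*, and none held a pair with 1 or 2 bases between (0.131% and 0.0399% of all windows). The 250 bases before that *RARB* start, chr3:25428013-25428262 on the plus strand, follow with both hexamers in capitals.
RARB: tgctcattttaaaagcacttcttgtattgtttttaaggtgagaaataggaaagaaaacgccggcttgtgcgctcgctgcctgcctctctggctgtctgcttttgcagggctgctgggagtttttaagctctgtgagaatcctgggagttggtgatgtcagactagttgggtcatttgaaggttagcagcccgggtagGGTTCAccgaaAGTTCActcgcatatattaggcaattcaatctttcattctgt
The pair spans positions -53 to -37 from the start. *CYP26A1*, which encodes the enzyme that clears retinoic acid and is the classical reporter of its action, was chosen for display after its values were seen. Its window (chr10:93073643-93073942) holds such a pair on the opposite strand at -90 to -74.
CYP26A1: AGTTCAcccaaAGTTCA
Such a match describes letters, and a window without one says only that these letters are not in it.

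Libraries held 13459219 to 25441812 counts (median 18494528), and levels are given as CPM, a count scaled by its library's total, where 1 CPM is 18.5 reads at the median depth. The 6 markers of E2F activity that were listed, *E2F1*, *E2F2*, *E2F8*, *CCNE2*, *RRM2* and *MKI67*, were called lower at both times in every line, as a check of the labels. Their summed level at the longer time lay at 73.1 to 371 CPM in BE2C, 405 to 611 in IMR-32 and 48.7 to 279 in SH-SY5Y, against at least 936 CPM in every control. All 9 adrenergic markers listed had a mean of 1 CPM or more in BE2C and IMR-32, as had 8 of them in SH-SY5Y. The 6 Schwann or glial markers in the tables summed to no more than 27.9 CPM in any library. IMR-32 replicate 5 stood apart: its median chi-square per degree of freedom against the other replicates of its group was 58.1, against 10.7 to 29.0 for replicates 1 to 4. Its mesenchymal markers summed to 935 CPM in the control, 706 at 24 h and 282 at 5 days, where the other 4 replicates lay at 342 to 394, 265 to 326 and 144 to 220. Most of that sum is 1 gene, *VIM*, which averaged 432, 351 and 175 CPM over the libraries of these groups. Comparisons of treated IMR-32 cells with control are therefore given with and without replicate 5. Other libraries were also far apart by that chi-square measure. At 24 h IMR-32 replicate 2 lay at 40.4 to 44.7 from replicates 1, 3 and 4, and at 7 days BE2C replicates 1 and 3 were at 77.8. In bulk RNA, fewer cells of a type and less RNA per cell cannot be told apart.

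In the untreated cells the 10 genes took a different order in each line. Levels are compared between genes per kilobase of exon (CPM per kb, mean of 5 controls). In BE2C both binding proteins led, with *CRABP2* at 103 and *CRABP1* at 66.1 CPM per kb, and *SOX4* followed at 64.0, its libraries overlapping those of *CRABP1*. In IMR-32 *SOX4* led at 128, then *MEIS1* at 30.2, *CRABP2* at 18.9, *CRABP1* at 15.4 and *RARA* at 12.8, and each of these last 4 overlapped its neighbour. In SH-SY5Y *SOX4* led at 81.7, and *CRABP1* (32.9), *CRABP2* (26.1) and *MEIS2* (25.2) overlapped. *RARB* was among the lowest in every line, at 0.160, 0.864 and 1.60 CPM per kb in BE2C, IMR-32 and SH-SY5Y. Dividing by the length of the canonical transcript in place of all exons exchanged some neighbours, such as *RARA* and *MEIS2* in BE2C.

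**Figure D1:**
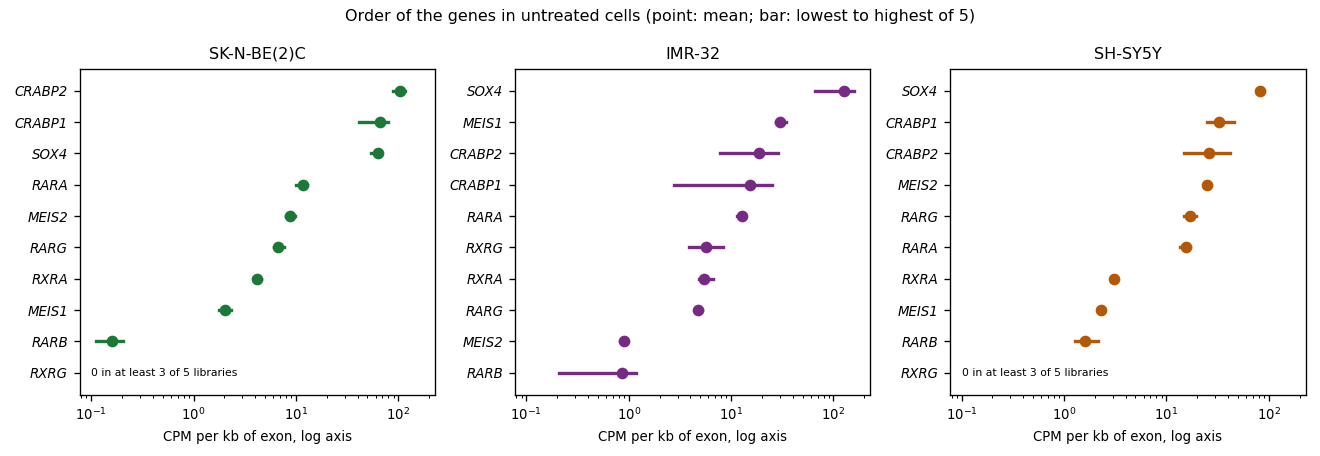
Levels of the 10 genes in untreated cells of each line, in CPM per kb of exon on a log axis, with points for the mean and bars from the lowest to the highest of 5 controls. *SOX4* led in IMR-32 and SH-SY5Y and *CRABP2* in BE2C, and *RXRG* has no point in the 2 lines where at least 3 of 5 controls were at 0.

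A fit of all 45 libraries compared the controls between lines; line and any batch that goes with it cannot be told apart. Calls, here and throughout, are from edgeR's quasi-likelihood test, with a p adjusted after Benjamini and Hochberg below 0.05 together with a log2 difference beyond 0.5. Of the 10 genes, 7 were called between BE2C and IMR-32, where 62.1% of all genes tested were, 6 between BE2C and SH-SY5Y (57.5%) and 7 between IMR-32 and SH-SY5Y (54.2%). These shares are near the background. In both IMR-32 pairs *RXRG* is among the 7 called, and it is also counted in the 10 of the other pair. *RXRG* had no counts in SH-SY5Y and almost none in BE2C, and passed the filter of that fit through IMR-32 alone. Its calls were thereby fixed in advance and give no support to those shares. *RARA* was called in none of the 3 pairs, with log2 differences of -0.11 ± 0.08 (SE), -0.20 ± 0.08 and -0.09 ± 0.08. *MEIS1* and *MEIS2* differed most among the genes with counts in every line. *MEIS1* was 14.9-fold higher in IMR-32, the line with its amplification, than in SH-SY5Y (log2 3.90 ± 0.10, adjusted p 9.3e-31), and between BE2C and SH-SY5Y the difference was 0.03 ± 0.10 with a 95% interval of -0.16 to 0.23. *MEIS2* ran the other way, with a log2 difference of -4.63 ± 0.12 for IMR-32 minus SH-SY5Y (adjusted p 5.3e-31) and of 3.32 ± 0.12 for BE2C minus IMR-32 (adjusted p 6.9e-27).

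**Figure D2:**
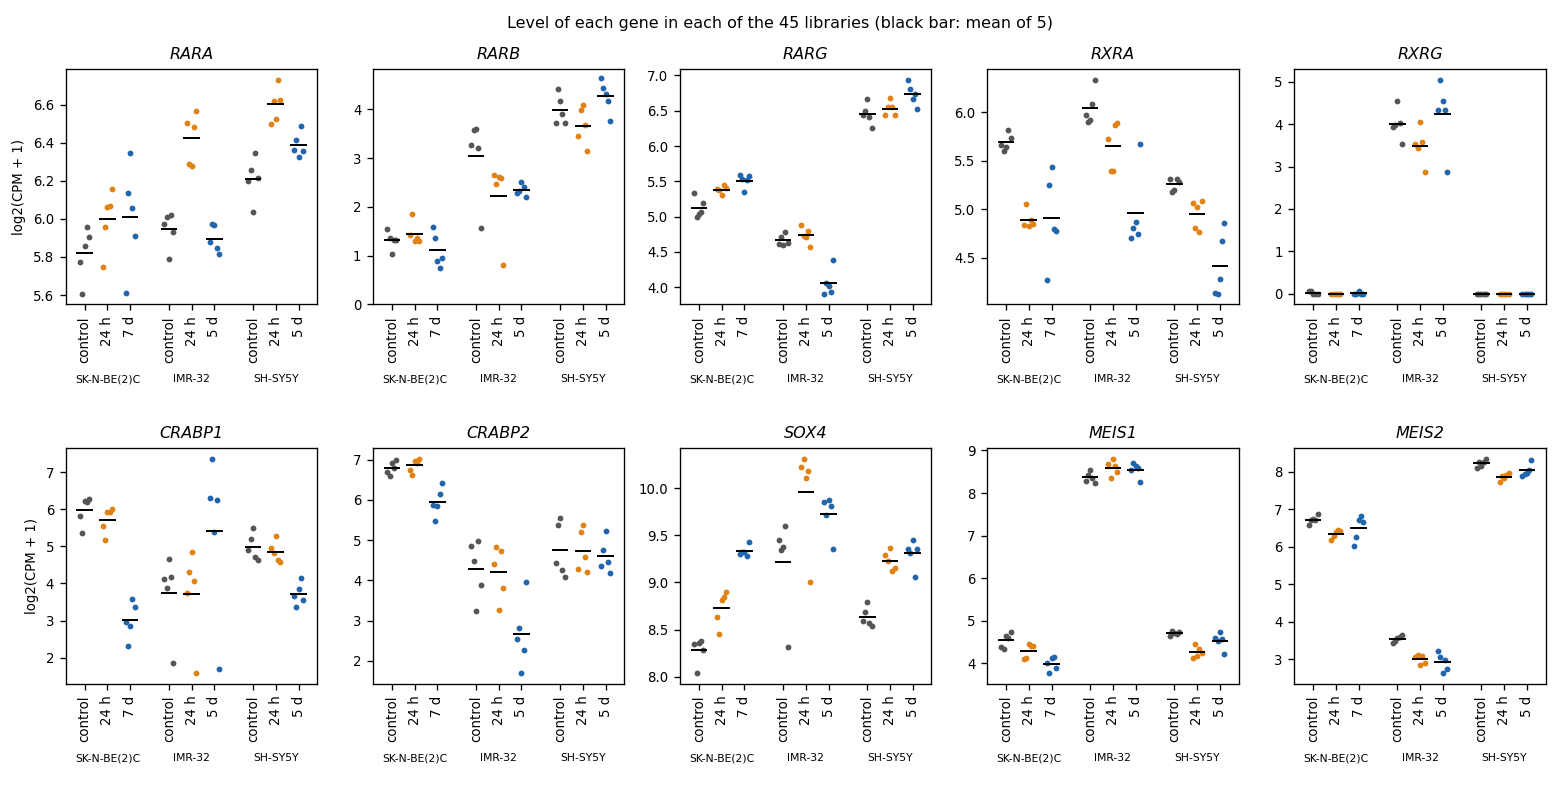
Level of each gene in each of the 45 libraries as log2(CPM + 1), by line and treatment, with black bars for the mean of 5. *RXRG* is at or near 0 outside IMR-32, *RXRA* lies lower in every treated library than in every control of its line, and 1 IMR-32 library (replicate 5) lies apart in *RARB*, *CRABP1* and *SOX4*.

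*RARA*, the receptor expressed most widely in the body, lies at chr17:38465432-38513895 (plus strand, GRCh37, the build of the counts, here and for the genes below). In IMR-32 it was at 61.8, 63.6, 54.3, 64.0 and 59.99 CPM in control replicates 1 to 5. After 24 h it was at 89.9, 77.1, 76.6, 88.5 and 93.9 CPM, and after 5 days at 57.9, 61.7, 61.7, 56.5 and 55.4 CPM. All 24 h libraries lay above all controls and all 5 day libraries, which in turn overlapped the controls. *RARA* rose at 24 h (log2 fold change 0.53 ± 0.07 SE, adjusted p 2.7e-05) and was lower again at 5 days than at 24 h (-0.59 ± 0.07, adjusted p 1.6e-05). At 5 days against control it was at -0.06 ± 0.07, with a 95% interval of -0.21 to 0.09. The call at 24 h sits at the limit of 0.5: it was 0.49 without control replicate 3, 0.50 without 24 h replicate 5, and 0.50 by DESeq2, each just under. Without replicate 5 in all 3 groups it was 0.50 ± 0.07 (0.501, adjusted p 5.5e-05, called), with -0.04 ± 0.07 at 5 days.

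In SH-SY5Y too *RARA* was highest at 24 h, with a smaller step from control. Its controls were at 72.6, 75.4, 64.7, 80.5 and 73.2 CPM, the 24 h libraries at 89.6, 97.5, 91.2, 105 and 97.7 and the 5 day libraries at 81.3, 84.2, 79.3, 88.8 and 80.9. The 24 h libraries lay above all others, and 4 of 5 libraries at 5 days lay above all controls. The log2 fold change at 24 h, 0.38 ± 0.06, had an adjusted p of 7.6e-05 but fell short of the 0.5 limit, and at 5 days it was 0.11 ± 0.06 (adjusted p 0.15). In BE2C *RARA* ranged over 47.7 to 61.1 CPM in controls, 52.8 to 70.3 at 24 h and 47.9 to 80.2 at 7 days, ranges that overlap, with log2 fold changes of 0.15 ± 0.11 and 0.17 ± 0.11 (adjusted p 0.27 and 0.17). Of the 4743 exon bases of *RARA*, 1015 lie under exons of genes on the other strand, *RARA-AS1* among them. The sources used here do not give the strand on which reads were counted, so reads of *RARA* and of those genes cannot be told apart.

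*RARB* (chr3:24729378-25639423, plus strand), the receptor whose promoter is printed above and which retinoic acid itself induces, was the lowest of the 3. BE2C had 0.681 to 2.63 CPM of it in any library. IMR-32 controls were at 8.58, 10.97, 11.1, 8.23 and 1.95 CPM. At 24 h they were at 5.33, 4.56, 5.11, 5.05 and 0.752 CPM, and at 5 days at 3.90, 4.03, 4.70, 4.33 and 3.58 CPM. In replicates 1 to 4 every treated library lay below every control, and replicate 5 lay below the other 4 in each group. With all 5 replicates edgeR made no call (-0.91 ± 0.42, adjusted p 0.11 at 24 h, and -0.996 ± 0.43, adjusted p 0.062 at 5 days), while DESeq2 called the latter (-1.02 ± 0.41, adjusted p 0.032). Without replicate 5 the values were -0.89 ± 0.13 (adjusted p 4.2e-05) and -1.20 ± 0.13 (adjusted p 1.3e-06), and with the replicate number as a block -0.91 ± 0.28 (adjusted p 0.019) and -0.83 ± 0.29 (adjusted p 0.023), all called.

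*RARB* in SH-SY5Y was at 12.2, 20.3, 17.0, 13.9 and 12.2 CPM in controls, 9.91, 14.9, 16.0, 11.7 and 7.85 at 24 h and 23.9, 20.8, 18.9, 17.1 and 12.5 at 5 days. Neither treated group was called against control (-0.33 ± 0.20 and 0.23 ± 0.20, adjusted p 0.18 and 0.31). The 5 day group was called higher than the 24 h group (0.57 ± 0.20, adjusted p 0.030), with 4 of 5 libraries above the whole 24 h range. Without a block that call is fragile: in 8 of 20 fits that leave out libraries it was lost, with values of 0.41 to 0.71 over the 20. With the replicate number as a block it stood, at 0.58 ± 0.13 (adjusted p 0.0012). Within a replicate number the 5 day level was above the 24 h level in 5 of 5 (1.18 to 2.41-fold). In BE2C the 7 day value against control was -0.38 ± 0.30 (adjusted p 0.26), and without 7 d replicate 1, at 2.02 CPM the highest of its group, it was -0.65 ± 0.28 (adjusted p 0.046).

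*RARG* (chr12:53604351-53626764, minus strand), a receptor known from skin and cartilage, fell in IMR-32 at 5 days and was not called in the other lines. IMR-32 controls were at 23.5, 25.1, 23.3, 26.5 and 23.6 CPM, the 24 h libraries at 28.4, 25.5, 25.3, 26.8 and 22.7 and the 5 day libraries at 14.0, 15.6, 15.2, 14.2 and 19.9. All 5 day libraries lay below all others. *RARG* fell by 0.64 ± 0.10 on the log2 scale against control (adjusted p 9.7e-05) and by 0.76 ± 0.10 against 24 h (adjusted p 4.3e-05); without replicate 5 the values were -0.74 ± 0.08 and -0.91 ± 0.08. At 24 h it was at 0.12 ± 0.10 with all replicates (adjusted p 0.37) and at 0.16 ± 0.08 without replicate 5 (adjusted p 0.10). In BE2C the controls were at 31.0 to 39.6 CPM and the 7 day libraries at 39.6 to 47.0, all of them above the controls by unrounded values (0.35 ± 0.07, adjusted p 0.00041). In SH-SY5Y the controls were at 75.8 to 101 CPM and the 5 day libraries at 91.0 to 122 (0.21 ± 0.08, adjusted p 0.021). Both values are under the 0.5 limit and were not called.

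Summed per kb, the 3 RARs shifted in makeup in IMR-32. *RARA* made up 69.5% ± 2.11 (SD, n = 5) of RAR level per kb in controls, 76.6% ± 2.81 at 24 h and 77.9% ± 2.60 at 5 days, and the sum went from 18.4 to 23.4 and then 15.9 CPM per kb. The control shares (66.7 to 72.4%) lay below all treated shares. In BE2C *RARA* was at 63.3% ± 3.07 in controls and 60.2% ± 6.09 at 7 days, and its ranges overlapped. In SH-SY5Y *RARG* was the larger part in controls (49.9% ± 3.73, *RARA* 45.4% ± 4.13) and at 5 days (51.4% ± 2.14 and 43.7% ± 2.93), while at 24 h the mean of *RARA* was the larger (51.5% ± 2.65, *RARG* 45.3% ± 2.00). Control and treated ranges overlapped there at both times. That order at 24 h depends on the length used: per kb of canonical transcript *RARG* had the larger mean in SH-SY5Y at all 3 times (29.9, 31.4 and 36.4 CPM per kb, against 22.4, 29.4 and 25.3 for *RARA*), while *RARA* stayed the larger in the other lines. *RARB* was at most 6.82% of the sum in any library.

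*RXRA* (chr9:137208944-137332431, plus strand), an RXR with which the RARs pair to bind DNA, was called lower in all 3 lines. In BE2C the controls were at 49.7, 47.4, 49.1, 55.3 and 52.3 CPM. The 24 h libraries were at 27.6, 32.3, 27.4, 28.6 and 27.8 CPM and the 7 day libraries at 18.3, 37.2, 42.2, 26.8 and 26.5 CPM. Every treated library lay below every control. *RXRA* fell by 0.85 ± 0.15 on the log2 scale at 24 h (adjusted p 0.00029) and by 0.79 ± 0.15 at 7 days (adjusted p 0.00024), to 0.555 and 0.579 of control. The treated times did not separate (0.06 ± 0.15, 95% interval -0.27 to 0.39), with the 7 day libraries spread to either side of the 24 h ones.

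In the other lines *RXRA* was called lower at 5 days. IMR-32 controls were at 61.7, 58.6, 59.7, 66.9 and 79.9 CPM, the 24 h libraries at 51.7, 41.1, 41.2, 57.6 and 58.2, and the 5 day libraries at 25.0, 27.0, 28.3, 25.8 and 49.8. SH-SY5Y controls were at 38.6, 35.3, 35.7, 38.6 and 38.0 CPM, the 24 h libraries at 32.4, 26.9, 31.6, 26.2 and 33.0, and the 5 day libraries at 16.6, 16.5, 18.4, 24.5 and 28.0. Again no treated library reached the lowest control, at either time. At 24 h neither line was called (-0.35 ± 0.18, adjusted p 0.15, and -0.32 ± 0.13, adjusted p 0.041). At 5 days *RXRA* fell by 1.08 ± 0.18 in IMR-32 (adjusted p 0.00018) and by 0.91 ± 0.13 in SH-SY5Y (adjusted p 6.9e-06), to 0.473 and 0.532 of control. Between 24 h and 5 days it fell by 0.73 ± 0.18 (adjusted p 0.0057) and by 0.59 ± 0.13 (adjusted p 0.0016). Without IMR-32 replicate 5, whose 49.8 CPM stands above its group, the 5 day value was -1.23 ± 0.10 and that at 24 h -0.31 ± 0.10 (adjusted p 0.016). In SH-SY5Y the call between 24 h and 5 days was lost without replicate 1 (-0.48), without 5 d replicate 1 (-0.48) or without 5 d replicate 2 (-0.49), and in IMR-32 without replicate 4 (-0.61, adjusted p 0.054). With all replicates the fit of all 45 libraries called no difference in the *RXRA* response between lines at either time. At 24 h the differences were -0.50 ± 0.23 for BE2C minus IMR-32 (adjusted p 0.20), -0.56 ± 0.23 for BE2C minus SH-SY5Y (adjusted p 0.21) and -0.05 ± 0.23 for IMR-32 minus SH-SY5Y. With the replicate number as a block within each line, an alternative added after the data were seen, the first was -0.51 ± 0.19 (adjusted p 0.073) and the second -0.56 ± 0.19 (adjusted p 0.072), neither called. Within a replicate number, 24 h levels were 0.517 to 0.683 of control in BE2C, 0.691 to 0.860 in IMR-32 and 0.678 to 0.885 in SH-SY5Y, so the BE2C ratios lay below those of IMR-32 and overlapped those of SH-SY5Y. At the longer time the difference was 0.31 ± 0.23 between BE2C and IMR-32 (95% interval -0.15 to 0.78), 0.09 ± 0.23 between BE2C and SH-SY5Y (-0.38 to 0.56) and -0.22 ± 0.23 between IMR-32 and SH-SY5Y (-0.69 to 0.25). Without replicate 5 of every group the first of these was called, at 0.53 ± 0.21 (adjusted p 0.042).

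*RXRG* (chr1:165370159-165414592, minus strand), an RXR of restricted tissues such as brain and muscle, was an IMR-32 gene. In SH-SY5Y all 15 libraries had 0 counts, and in BE2C there were 2 counts over the 5 controls, 0 at 24 h and 1 at 7 days. IMR-32 had 1578 counts over its 5 controls, 1033 at 24 h and 1783 at 5 days. Its mean of 15.4 CPM in controls was at least 524-fold higher than the 0.0295 CPM that a count of 0 over the 5 SH-SY5Y controls allows (3 counts over the group, counting error only). In IMR-32 the controls were at 14.3, 14.8, 22.3, 15.3 and 10.5 CPM, the 24 h libraries at 10.5, 9.87, 15.7, 11.1 and 6.33 and the 5 day libraries at 19.3, 32.3, 22.6, 19.2 and 6.39. The groups overlap, and in each replicate the 24 h level was below its control. edgeR called no comparison with all replicates (-0.48 ± 0.33, adjusted p 0.28 at 24 h, 0.36 ± 0.32, adjusted p 0.37 at 5 days, and 0.84 ± 0.33, adjusted p 0.060 between the treated times), while DESeq2 called the last (0.85 ± 0.32, adjusted p 0.025). With the replicate number as a block, the 24 h value was -0.51 ± 0.19 (adjusted p 0.0496) and that between treated times 0.79 ± 0.19 (adjusted p 0.0055), both called. Without replicate 5 the latter was 0.92 ± 0.19 (adjusted p 0.0011), also called, but the 24 h value was -0.44 ± 0.19 (adjusted p 0.076) and that at 5 days 0.48 ± 0.19 (adjusted p 0.037), neither called.

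*CRABP1* (chr15:78632695-78640567, plus strand) showed the widest range of responses. In BE2C the controls were at 55.4, 39.8, 73.9, 72.3 and 75.6 CPM and the 24 h libraries at 46.1, 35.1, 59.2, 59.6 and 63.1, which overlap. The 7 day libraries were at 6.82, 3.99, 6.26, 10.9 and 9.36 CPM, all below every other library of the line. *CRABP1* fell by 3.13 ± 0.26 on the log2 scale at 7 days (adjusted p 5.0e-08), to 0.114 of control, after -0.30 ± 0.23 at 24 h (adjusted p 0.30). SH-SY5Y followed the same course: 28.9, 35.8, 44.4, 25.1 and 23.8 CPM in controls, 29.8, 27.4, 38.0, 24.0 and 22.8 at 24 h, and 11.5, 9.26, 13.5, 16.7 and 10.8 at 5 days. The 5 day libraries were below all others, and the log2 fold change was -0.17 ± 0.18 at 24 h (adjusted p 0.48) and -1.42 ± 0.19 at 5 days (adjusted p 8.0e-06), to 0.374 of control.

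In IMR-32 *CRABP1* went the other way. Controls were at 16.2, 13.6, 24.2, 17.1 and 2.64 CPM, the 24 h libraries at 12.4, 19.0, 27.7, 15.6 and 2.00, and the 5 day libraries at 77.6, 163, 40.9, 75.5 and 2.24. Replicates 1 to 4 at 5 days lay above all controls and all 24 h libraries, and replicate 5 stayed at the level of its own control. *CRABP1* rose by a log2 fold change of 2.27 ± 0.80 (adjusted p 0.028), 4.81-fold with a 95% interval of 0.56 to 3.97 on the log2 scale. The 24 h value was 0.11 ± 0.78 (adjusted p 0.93). With replicate 5 left out the rise was 2.32 ± 0.40 (adjusted p 0.00043) and the 24 h value 0.13 ± 0.40. Against 24 h the 5 day value was 2.15 ± 0.79 (adjusted p 0.049), a call lost in 16 of 20 fits that leave out libraries. Within a replicate number, the 5 day level was above the 24 h level in 5 of 5 (1.12 to 8.57-fold) and above the control in 4 of 5 (0.848 to 12.0-fold). With the replicate number as a block both calls stood, at 1.98 ± 0.42 (adjusted p 0.0031) and 2.01 ± 0.42 (adjusted p 0.0018). Without the block, the call at 5 days against control was lost in 7 of 20 fits that leave out libraries: without replicate 1 (2.26, adjusted p 0.089), replicate 2 (1.70, adjusted p 0.15) or replicate 4 (2.31, adjusted p 0.088), without control replicate 1, 2 or 5 (2.30, 2.23 and 2.00) and without 5 d replicate 2 (1.73). Of the 959 exon bases of *CRABP1*, 440 lie under an exon on the other strand, so part of its reads could belong to that gene.

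*CRABP2* (chr1:156669398-156675608, minus strand), the form that hands retinoic acid to the receptors, fell in BE2C and IMR-32. BE2C controls were at 102, 96.5, 121, 111 and 126 CPM, the 24 h libraries at 106, 98.2, 125, 121 and 129 and the 7 day libraries at 57.6, 43.9, 56.3, 70.0 and 85.0. The 7 day libraries lay below all others, and *CRABP2* fell by 0.87 ± 0.14 (adjusted p 4.1e-05), to 0.546 of control. IMR-32 controls were at 28.0, 21.5, 8.44, 30.8 and 13.7 CPM and the 5 day libraries at 4.83, 5.99, 2.24, 3.78 and 14.6. Replicates 1 to 4 at 5 days lay below all controls and replicate 5 did not. The fall at 5 days was 1.71 ± 0.49 (adjusted p 0.0093), and it was -2.41 ± 0.48 without replicate 5 (adjusted p 0.0012), -1.50 without replicate 1 (adjusted p 0.062) and -1.38 without replicate 4 (adjusted p 0.067). In SH-SY5Y the controls were at 16.0 to 45.7 CPM and the 5 day libraries at 17.0 to 36.5, with a log2 fold change of -0.29 ± 0.34 (95% interval -1.03 to 0.45). At 24 h the values were 0.03 ± 0.14, -0.06 ± 0.46 and -0.07 ± 0.34 in BE2C, IMR-32 and SH-SY5Y, and -0.06 ± 0.42 in IMR-32 without replicate 5.

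The balance of both binding proteins followed. In BE2C *CRABP1* made up 38.7% ± 4.19 (SD, n = 5) of their sum per kb in controls, 33.5% ± 2.91 at 24 h and 11.6% ± 2.05 at 7 days, while that sum went from 169 to 162 and then 65.6 CPM per kb. In SH-SY5Y the share went from 57.4% ± 5.89 to 55.1% ± 7.08 and 37.4% ± 8.10. In IMR-32 it was 42.8% ± 21.1 in controls, 43.8% ± 22.7 at 24 h and 79.5% ± 36.2 at 5 days, with replicate 5 at 14.7% and the highest library at 96.8%.

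**Figure D3:**
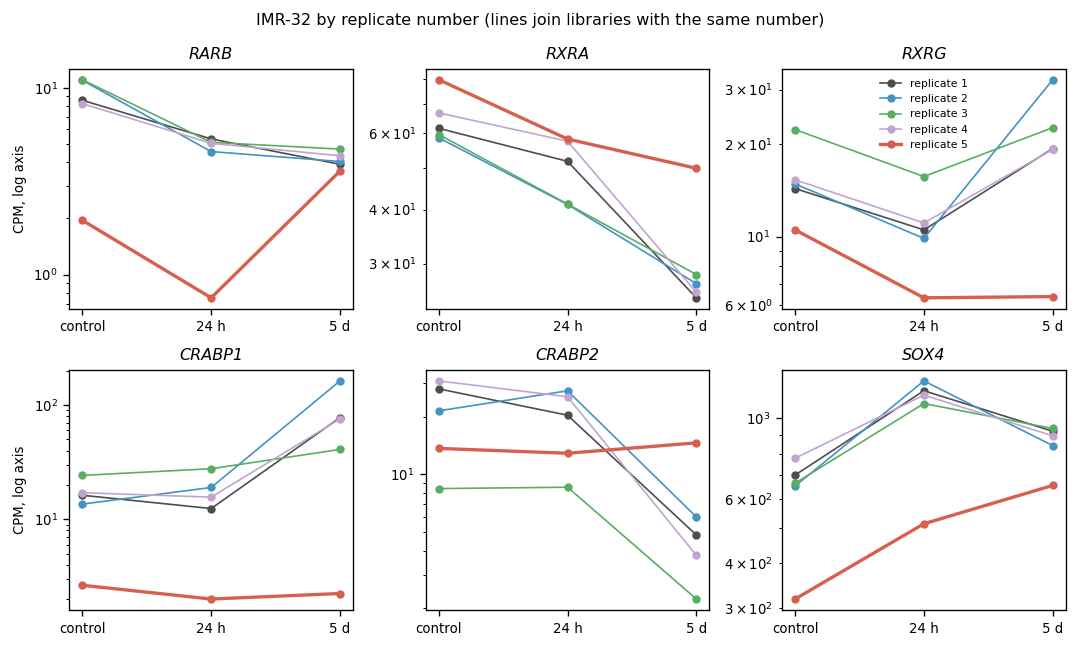
Levels in IMR-32 in CPM on a log axis at control, 24 h and 5 days, with lines joining libraries of the same replicate number and replicate 5 drawn thick. *CRABP1* at 5 days reached 40.9 to 163 CPM in replicates 1 to 4 and 2.24 in replicate 5, and *RXRA* was highest in replicate 5 in every group.

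*SOX4* (chr6:21593982-21598850, plus strand), of 1 exon, was the most abundant member in CPM in every line and rose in each of them at some time. In BE2C it was at 325, 262, 327, 332 and 311 CPM in controls, 395, 350.0, 448, 460.4 and 478 at 24 h and 630.2, 640.4, 638, 620.0 and 687 at 7 days. The 3 groups did not overlap, each above the one before. *SOX4* was at 0.42 ± 0.08 at 24 h (adjusted p 0.00040, under the limit) and rose by 1.004 ± 0.08 at 7 days (adjusted p 1.4e-08), 2.01-fold, and by 0.58 ± 0.08 between the treated times (adjusted p 1.2e-05). SH-SY5Y went from 384, 411, 443, 379 and 372 CPM to 628, 596, 658, 557 and 567 at 24 h and 655, 636, 701, 531 and 652 at 5 days. All treated libraries lay above all controls, with rises of 0.58 ± 0.08 (adjusted p 4.2e-06) and 0.61 ± 0.08 (adjusted p 1.4e-06) and 0.02 ± 0.07 between the treated times (95% interval -0.14 to 0.18).

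In IMR-32 the mean of *SOX4* was highest at 24 h. Controls were at 698, 651, 663, 777 and 318 CPM, the 24 h libraries at 1192, 1269, 1099, 1159 and 512 and the 5 day libraries at 922, 841, 938, 895 and 653. Replicate 5 was lowest in each group, and in replicates 1 to 4 the 3 groups did not overlap. The rise at 24 h was 0.80 ± 0.24 (adjusted p 0.019), and without replicate 5 it was 0.82 ± 0.08 (adjusted p 9.1e-07). The call was lost without replicate 1 (0.80, adjusted p 0.072), replicate 2 (0.72, adjusted p 0.089) or replicate 3 (0.82, adjusted p 0.071). At 5 days the value was 0.44 ± 0.24 (adjusted p 0.14), 0.36 ± 0.08 without replicate 5 (adjusted p 0.0014) and, with the replicate number as a block, 0.50 ± 0.12 (0.502, adjusted p 0.0026, called). Between 24 h and 5 days *SOX4* was not called, at -0.36 ± 0.24 (adjusted p 0.26), -0.46 ± 0.08 without replicate 5 (adjusted p 0.00034, under the limit) and -0.29 ± 0.12 with the block (adjusted p 0.059), and in replicate 5 it was higher at 5 days than at 24 h. Of the 4869 bases of *SOX4*, 168 lie under an exon on the other strand.

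*MEIS1* (chr2:66660584-66801001, plus strand) fell in BE2C at 7 days and was called in no other comparison with control. BE2C controls were at 19.99, 19.2, 23.9, 23.1 and 25.6 CPM, the 24 h libraries at 16.1, 16.5, 20.9, 20.2 and 20.2 and the 7 day libraries at 15.2, 12.7, 16.4, 16.7 and 13.8. The 7 day libraries lay below all controls, and *MEIS1* fell by 0.62 ± 0.11 (adjusted p 6.2e-05) after -0.28 ± 0.10 at 24 h (adjusted p 0.035). SH-SY5Y controls were at 23.9, 26.0, 25.3, 24.7 and 25.9 CPM, the 24 h libraries at 16.6, 20.9, 17.0, 19.3 and 18.0 and the 5 day libraries at 23.1, 22.2, 25.8, 22.7 and 17.5. All 24 h libraries lay below all controls, and the values of -0.46 ± 0.09 at 24 h (adjusted p 0.00036) and -0.24 ± 0.09 at 5 days (adjusted p 0.024) were under the limit. The first passed it without replicate 2 (-0.53), replicate 4 (-0.51) or 24 h replicate 2 (-0.53). In IMR-32, where the gene is amplified, controls were at 310.4, 340.3, 374, 326 and 300.4 CPM, the 24 h libraries at 407, 329, 446, 395 and 359 and the 5 day libraries at 369, 417, 397, 384 and 304. The groups overlapped, with 0.27 ± 0.09 at 24 h (adjusted p 0.033) and 0.17 ± 0.09 at 5 days (adjusted p 0.14). Without replicate 5 these were 0.28 ± 0.08 (adjusted p 0.014) and 0.21 ± 0.08 (adjusted p 0.044). Of the 10942 exon bases of *MEIS1*, 1456 lie under *MEIS1-AS2* and *MEIS1-AS3* on the other strand.

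*MEIS2* (chr15:37181405-37393500, minus strand) was lower at 24 h in every library of every line than in any control of that line. BE2C went from 94.4, 104, 107, 104 and 117 CPM to 71.8, 77.0, 83.1, 87.0 and 85.0, and was at 64.1, 75.9, 104, 112 and 99.5 at 7 days. IMR-32 went from 9.77, 10.2, 10.8, 11.2 and 11.5 CPM to 7.38, 7.71, 6.20, 7.54 and 6.45, and was at 8.32, 7.30, 5.22, 6.90 and 5.66 at 5 days. SH-SY5Y went from 275, 306, 285, 309 and 325 CPM to 213, 237, 226, 241 and 250.5, and was at 235, 247, 249.5, 265 and 320.1 at 5 days. At the longer time only the IMR-32 libraries stayed clear of their controls. *MEIS2* fell by 0.55 ± 0.13 at 24 h (adjusted p 0.0046) and by 0.69 ± 0.13 at 5 days in IMR-32 (adjusted p 0.00055), and without replicate 5 the first was -0.48 ± 0.13, under the limit, and the second -0.60 ± 0.13 (adjusted p 0.0011). The other lines had -0.41 ± 0.12 and -0.37 ± 0.08 at 24 h (adjusted p 0.0085 and 0.0010) and -0.25 ± 0.12 and -0.26 ± 0.08 at the longer time (adjusted p 0.064 and 0.011), none called. Of the 11897 exon bases of *MEIS2*, 431 lie under an exon on the other strand.

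Counted together, the share of the 10 genes called lay on both sides of the share of all genes. At 24 h, 1 of 9 tested was called in BE2C (*RXRA* lower), where 21.5% of all genes were called, 10.9% higher and 10.6% lower, 3 of 10 in IMR-32 (*RARA* and *SOX4* higher, *MEIS2* lower, against 18.3% of all genes, 7.87% higher and 10.5% lower) and 1 of 9 in SH-SY5Y (*SOX4* higher, against 21.5% of all genes, 10.5% higher and 11% lower). At the longer time there were 5 of 9 in BE2C (*SOX4* higher, *RXRA*, *CRABP1*, *CRABP2* and *MEIS1* lower, against 46.8%, 24.5% higher and 22.3% lower), 5 of 10 in IMR-32 (*CRABP1* higher, *RARG*, *RXRA*, *CRABP2* and *MEIS2* lower, against 32%, 16.6% higher and 15.5% lower) and 3 of 9 in SH-SY5Y (*SOX4* higher, *RXRA* and *CRABP1* lower, against 35.9%, 18.6% higher and 17.3% lower). Without replicate 5 the IMR-32 count was 3 of 10 at 24 h (20.2% of all genes tested in that fit) and 6 of 10 at 5 days (35%), and with the replicate block 5 of 10 at 24 h (21.8%) and 7 of 10 at 5 days (35%). The median log2 fold change of the members at the longer time was -0.38, -0.35 and -0.24 in BE2C, IMR-32 and SH-SY5Y, against 0.01, 0.00 and 0.01 over all genes tested. At 24 h it was 0.03, 0.03 and -0.17 against 0.02, 0.06 and 0.04. Without replicate 5 the IMR-32 medians were 0.03 at 24 h and -0.32 at 5 days. Between the treated times 1 was higher and 2 lower of 9 in BE2C, where 31.9% of all genes were called (17.5% higher, 14.4% lower). In IMR-32 it was 1 and 4 of 10 (19.6% of all genes, 10.8% higher and 8.86% lower), and in SH-SY5Y 1 and 2 of 9 (16.7%, 10.5% higher and 6.23% lower). With an adjusted p under 0.05 as the sole condition, 5 of 9 were called in BE2C at 24 h (46.8% of all genes), 5 of 9 in SH-SY5Y at 24 h (49.2%) and 6 of 9 in SH-SY5Y at 5 days (65.4%). *RXRG* was tested in IMR-32 alone.

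**Figure D4:**
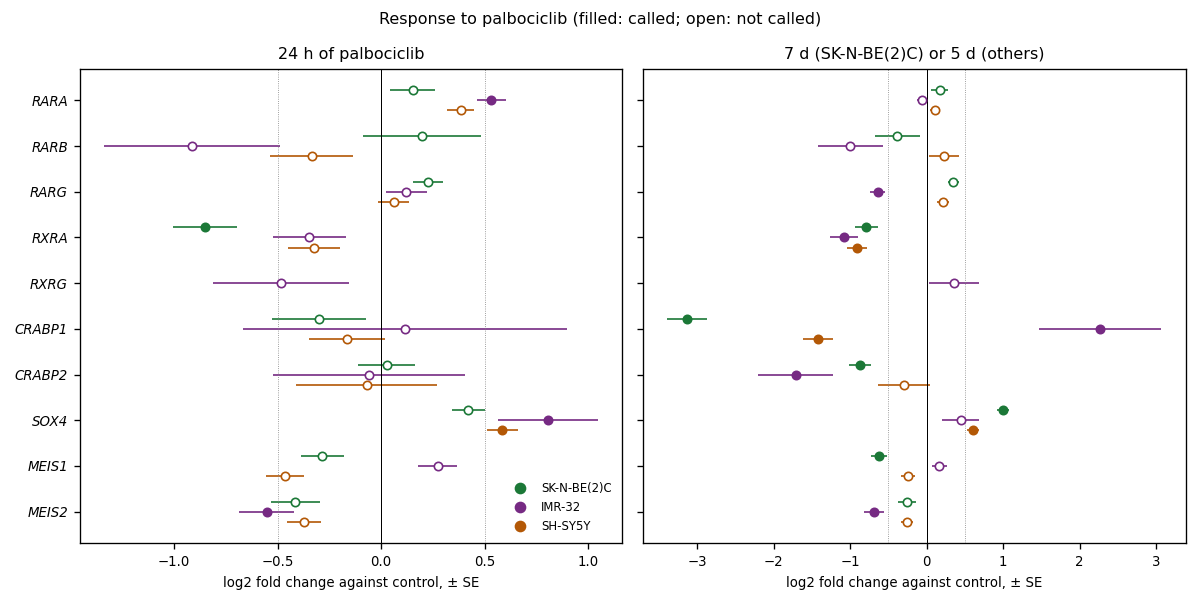
Log2 fold change against control (± SE) of each gene at 24 h and at the longer time in BE2C (green), IMR-32 (purple) and SH-SY5Y (orange), filled where called, with dotted lines at the limit of 0.5 and a wider scale at the longer time. *RXRA* is filled in each line at the longer time, while *CRABP1* lies at -3.13 and -1.42 in BE2C and SH-SY5Y and at 2.27 in IMR-32.

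The fit of all 45 libraries also tested whether responses differed between lines. At 24 h *MEIS1* was the single member called with all replicates and no block, with a difference of response of -0.55 ± 0.13 for BE2C minus IMR-32 (adjusted p 0.0072, where 4.49% of all genes were called) and, for IMR-32 minus SH-SY5Y, of 0.71 ± 0.13 (adjusted p 0.00078, where 3.07% were). With adjusted p alone, 2 members passed for BE2C minus IMR-32 (6.89% of all genes), the other being *RARA* at -0.38 ± 0.12 (adjusted p 0.045). The *MEIS1* call for BE2C minus IMR-32 was lost without replicate 1 (-0.50, adjusted p 0.071) or replicate 4 (-0.56, adjusted p 0.058). *RARB* was called beside *MEIS1* for that difference without replicate 5 of every group (1.17 ± 0.33, adjusted p 0.022, 5.33% of all genes called) and with the replicate block within each line (1.11 ± 0.36, adjusted p 0.035, 6.88% of all genes called). *RXRG*, at 0 in every SH-SY5Y library and with 3 counts over all of BE2C, passed the filter of that fit through IMR-32 alone and has no testable difference of response, so it is left out of the members counted here and below. Between BE2C and SH-SY5Y none of 9 was called by edgeR (2.04% of all genes), with 2 at an unadjusted p under 0.05 and 0 called by DESeq2.

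At the longer time the members called were differences of IMR-32 from the other lines. Against BE2C 4 of 9 members were called (23.9% of all genes): the response of *CRABP1* differed by -5.36 ± 0.75 for BE2C minus IMR-32 (adjusted p 5.4e-07) and that of *MEIS1* by -0.76 ± 0.14 (adjusted p 2.9e-05), while *RARG* differed by 1.01 ± 0.12 (adjusted p 2.4e-08) and *SOX4* by 0.59 ± 0.23 (adjusted p 0.040). Against SH-SY5Y 4 of 9 were called (20.8%): for IMR-32 minus SH-SY5Y the difference was 3.62 ± 0.73 for *CRABP1* (adjusted p 0.00019), -1.48 ± 0.52 for *CRABP2* (adjusted p 0.027), -1.29 ± 0.43 for *RARB* (adjusted p 0.020) and -0.91 ± 0.12 for *RARG* (adjusted p 3.1e-07). Between BE2C and SH-SY5Y none was called by edgeR with all replicates and no block (21.2% of all genes), with 2 at an unadjusted p under 0.05, 1 at an adjusted p under 0.05 alone (31.6% of all genes) and 0 by DESeq2, and the *CRABP1* difference was -1.74 ± 0.73 (adjusted p 0.064), called without replicate 5 of every group (-1.72 ± 0.48, adjusted p 0.0064). The *CRABP1* difference was also called with the replicate block within each line (-1.78 ± 0.40, adjusted p 0.00088).
Leaving out replicate 5 of every group also brought the calls to 7 of 9 between BE2C and IMR-32 (26.3% of all genes tested in that fit), adding *RARB* (0.91 ± 0.35), *RXRA* (0.53 ± 0.21) and *CRABP2* (1.49 ± 0.52). *MEIS2*, uncalled with all replicates, was called for BE2C minus IMR-32 without replicate 1 (0.67) or 2 (0.57), and for IMR-32 minus SH-SY5Y without replicate 1 (-0.64) or 2 (-0.57). The *SOX4* difference was lost when any of replicates 1 to 4 was left out, with values of 0.52 to 0.63, as was the *RARB* difference (-1.31 to -1.10) and the *CRABP2* difference was lost without replicate 1 (-1.25), 2 (-1.57) or 4 (-1.06).

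Markers of other cell types moved with treatment too. Of the mesenchymal markers tested, 7 of 9 in BE2C, 3 of 5 in IMR-32 and 6 of 9 in SH-SY5Y were called lower at the longer time and 1, 0 and 1 higher, where 22.3%, 15.5% and 17.3% of all genes were called lower. The intermediate filament gene *VIM* fell in every line, by 0.93 ± 0.20, 1.32 ± 0.33 and 0.53 ± 0.11 on the log2 scale (adjusted p 0.00071, 0.0040 and 0.00054), and in IMR-32 by 1.16 ± 0.13 without replicate 5, where 4 of 4 mesenchymal markers tested were called lower. The summed level of the mesenchymal markers lay at 649 to 902 CPM in BE2C controls and 418 to 732 at 7 days, at 342 to 935 and 144 to 282 in IMR-32, and at 1254 to 1690 and 959 to 1069 in SH-SY5Y. *VIM* was the larger part of these sums, with means of 548 and 295, 432 and 175, and 1067 and 775 CPM. The sums and *VIM* are therefore not separate observations. *FOSL1* was at 0 in treated IMR-32 and *IFI16* at 0 in SH-SY5Y controls and at 5 days. The fibroblast markers summed to 229 to 323, 129.8 to 265 and 649 to 966 CPM in controls and 295 to 557, 35.5 to 68.9 and 452 to 714 CPM at the longer time. Of 6, 4 and 7 tested, 4, 1 and 1 were called higher and 1, 3 and 3 lower, against 24.5%, 16.6% and 18.6% of all genes higher. *DCN* among them rose in every line (1.23 ± 0.14, 2.40 ± 0.76 and 0.96 ± 0.32), in IMR-32 from a mean of 0.166 to 0.951 CPM (2.42 ± 0.58 without replicate 5, with 1 fibroblast marker higher and 3 lower of 4). Of the 9 adrenergic markers, all tested, 2 in each line were called higher and 0, 1 and 1 lower, against the same shares of all genes. Their sum lay at 4412 to 5073 CPM in BE2C controls and 7946 to 12277 at 7 days, at 2245 to 3356 and 3210 to 4261 in IMR-32, and at 4763 to 6368 and 8052 to 11259 in SH-SY5Y. *CHGA* among them, of secretory granules, rose by 1.02 ± 0.13, 1.23 ± 0.21 and 1.66 ± 0.19, and in IMR-32 by 1.40 ± 0.17 without replicate 5, where 3 of the 9 were higher and 1 lower. The part of these in the results above was not tested.

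The neighbours of the receptors in the pathway were read as lists. Their counts of calls stand against 46.8%, 32% and 35.9% of all genes called at the longer time in BE2C, IMR-32 and SH-SY5Y and 21.5%, 18.3% and 21.5% at 24 h, here and in the lists that follow. Of the genes that supply or clear retinoids, 8, 11 and 9 were tested in BE2C, IMR-32 and SH-SY5Y, and at the longer time 1, 0 and 1 were called higher and 2, 3 and 2 lower, with medians of 0.00, -0.15 and -0.10. At 24 h the calls were 2 higher and 1 lower, 0 and 1, and 1 and 1. *FABP5*, which passes retinoic acid to other nuclear receptors, fell at the longer time in each line, by 1.69 ± 0.11 (adjusted p 2.5e-09), 0.69 ± 0.12 (adjusted p 0.00025) and 1.25 ± 0.19 (adjusted p 2.1e-05), and in IMR-32 by 0.65 ± 0.11 without replicate 5. Of genes that retinoic acid is known to induce, 6, 9 and 9 were tested and 1, 0 and 3 were called higher and 2, 3 and 2 lower, and no gene was called in the same direction in more than 1 line, so the rule named none. Outside that rule, and chosen after its values were seen, *DHRS3*, a retinal reductase, fell in IMR-32 by 3.28 ± 0.93 (adjusted p 0.0092; 3.27 ± 0.29 without replicate 5) and rose in SH-SY5Y by 2.25 ± 0.34 (adjusted p 1.5e-05). *CYP26A1*, with the pair of hexamers printed above, had enough counts in IMR-32 alone and was not called there with all replicates (0.84 ± 0.73 at 24 h and 1.59 ± 0.73 at 5 days, adjusted p 0.41 and 0.079). Without replicate 5 it was at 0.80 ± 0.43 at 24 h (adjusted p 0.15) and was called higher at 5 days (1.54 ± 0.41, adjusted p 0.0047).

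Of the RAR cofactors, 22, 21 and 21 were tested in the same order of lines, and 2, 0 and 0 were called higher and 5, 0 and 2 lower at the longer time, with medians of -0.17, -0.07 and -0.24. In IMR-32, where edgeR called 0, 10 had an unadjusted p under 0.05 and DESeq2 called 1. At 24 h the calls were 1 lower in BE2C and 0 by edgeR in IMR-32 and SH-SY5Y, where 3 and 5 had an unadjusted p under 0.05 and DESeq2 called 1 in each. *PRMT1*, an arginine methyltransferase coactivator, fell in BE2C by 0.59 ± 0.09 and in SH-SY5Y by 0.53 ± 0.07 (adjusted p 1.9e-05 and 5.2e-06) and was at -0.35 ± 0.09 in IMR-32 (-0.37 ± 0.10 without replicate 5). Of other receptors that pair with RXR, 11, 13 and 10 were tested, with 2, 0 and 2 called higher and 3, 6 and 0 lower at the longer time and medians of -0.20, -0.64 and 0.29. *PPARA*, a receptor of fatty acids, rose in BE2C and SH-SY5Y (0.97 ± 0.11 and 0.92 ± 0.14) and was at -0.29 ± 0.16 in IMR-32 (-0.42 ± 0.16 without replicate 5). *NR2F2* fell in BE2C and IMR-32 by 0.71 ± 0.07 and 0.64 ± 0.15 (0.77 ± 0.11 without replicate 5). At 24 h these receptors had 1, 1 and 2 calls, all lower.

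Next came the partners and relatives of the transcription factors. Of TALE homeodomain cofactors (8, 9 and 8 tested), 0, 0 and 1 were called higher and 2, 3 and 3 lower at the longer time, with *TGIF1*, a repressor of retinoid and TGF-beta responses, lower in all 3 lines by 0.55 ± 0.21, 1.69 ± 0.37 and 1.16 ± 0.15 (adjusted p 0.029, 0.0017 and 3.2e-06), and in IMR-32 by 1.26 ± 0.16 without replicate 5. At 24 h the calls were 0 in BE2C by edgeR (2 at an unadjusted p under 0.05, 0 by DESeq2), 1 lower in IMR-32, and 1 higher and 3 lower in SH-SY5Y. Of other SOX genes (6, 4 and 7 tested), 2, 0 and 1 were higher and 3, 1 and 2 lower at the longer time. At 24 h edgeR called 0 in BE2C and IMR-32 (4 and 2 at an unadjusted p under 0.05, DESeq2 0 in each) and 3 lower in SH-SY5Y. *SOX11*, of the same SOX subgroup as *SOX4*, fell where *SOX4* rose at the longer time, by 1.26 ± 0.11 in BE2C and 1.42 ± 0.10 in SH-SY5Y (adjusted p 5.3e-08 and 4.8e-09), and was at 0.23 ± 0.07 in IMR-32 (0.23 ± 0.06 without replicate 5). *SOX2*, a factor of neural progenitors, had log2 fold changes of -3.79 ± 0.90 and -2.05 ± 0.29 in the same lines (adjusted p 0.0015 and 6.0e-06).
Of the adrenergic core circuit (11, 10 and 11 tested), 2, 1 and 2 were higher and 2, 0 and 1 lower at the longer time, with medians of 0.36, 0.23 and 0.14. At 24 h the calls were 0 in BE2C by edgeR (7 at an unadjusted p under 0.05, 0 by DESeq2), 5 higher in IMR-32 and 1 higher in SH-SY5Y. *TFAP2B*, a factor of sympathetic neurons, rose in BE2C and SH-SY5Y (0.65 ± 0.16 and 0.60 ± 0.11), with 0 counts in IMR-32 controls.
Without replicate 5 the IMR-32 counts at 5 days, where 35% of all genes were called, were 2 higher and 4 lower of 11 genes of retinoid supply and clearance and 3 higher and 3 lower of 9 genes that retinoic acid induces. They were 1 higher of 21 RAR cofactors, 7 lower of 13 RXR partners, 4 lower of 9 TALE cofactors, 1 lower of 4 SOX genes and 1 higher of 10 genes of the core circuit. At 24 h (20.2% of all genes) the calls were 1 higher among RAR cofactors, 4 higher in the core circuit, 1 lower each among inducible genes and RXR partners and 2 lower among TALE cofactors. The medians at 5 days without replicate 5 were -0.28 for supply and clearance, -0.0025 for RAR cofactors, -0.77 for RXR partners and 0.17 for the core circuit. At 24 h edgeR called 0 genes of retinoid supply and clearance and 0 SOX genes, with 6 and 2 at an unadjusted p under 0.05.

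**Figure D5:**
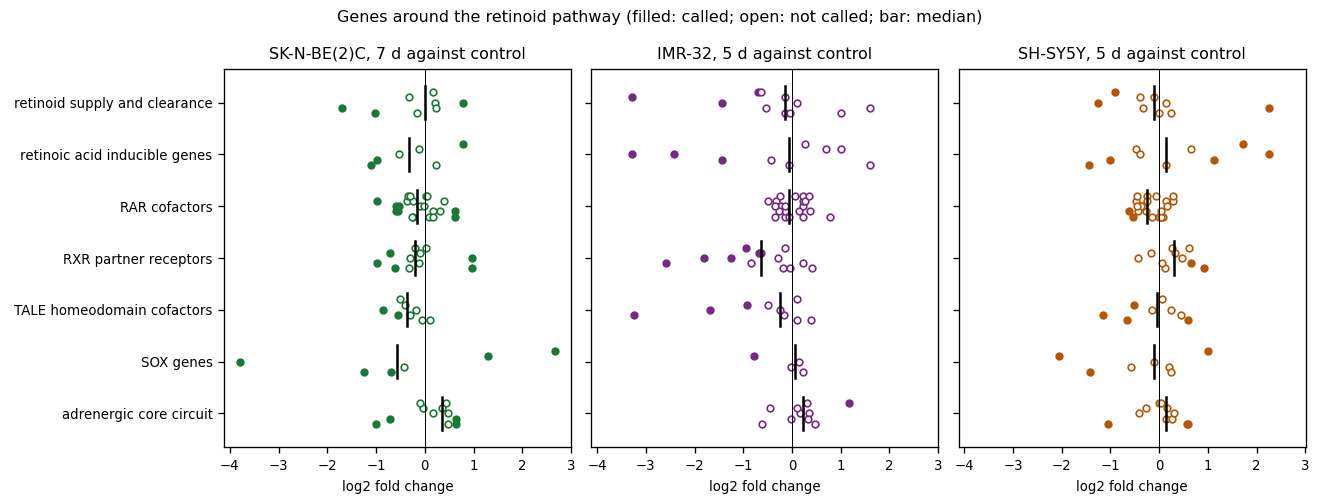
Log2 fold change against control at the longer time of the tested genes of 7 lists around the retinoid pathway, in each line, filled where called, with bars for the median of each list. Each point is a gene, RAR cofactors have no filled point in IMR-32, and RXR partners in IMR-32 have the lowest median, -0.64.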

How the data were processed

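PolyA-selected RNA gave directional libraries with paired-end reads. The authors trimmed reads with Trim Galore (0.6.4 in the submitters' processing notes), aligned them to hg19 with STAR (2.6.1d in the same notes) and deposited counts per gene. The authors also deposited CPM, which equal the counts divided by library totals. Tables of the authors' own comparisons (DESeq2 1.32.0) were not used. The replicates are different passages plated in independent experiments. The members and gene lists were chosen with earlier results of these data known.

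Counts were fitted per line in R 4.3.3 with edgeR 4.0.16 (TMM scaling, filterByExpr with at least 10 counts, a robust quasi-likelihood fit of 15 libraries) over 14055, 14293 and 14547 genes, and over 16282 genes for all 45 libraries. Adjusted p-values are over all genes tested, SE is the log2 fold change over the square root of F, and edgeR's biological coefficient of variation was 13.8%, 19.8% and 11.2%. Genes of a list were named when called in the same direction at the longer time in all 3 lines, or else in 2, at most 3 a list. On simulated data for the 24 h comparisons, 94, 93 and 95 of 100 genes changed by a log2 of 1 were recovered, with 8, 17 and 5 false calls. The simulation set that coefficient to 0.15 in every line and held no outlying replicate. IMR-32 itself had 19.8% and an outlying replicate 5, so the simulation does not give the recovery in IMR-32. Alternatives were other scalings, no filter, DESeq2 1.42.0, adjusted p alone, left-out replicates and the replicate number as a block. The check for a shared passage was that libraries of the same number correlated, after group means were removed, at 0.109 or more in every pair in IMR-32, SH-SY5Y and BE2C at 24 h against control, and as low as 0.0482 in the BE2C comparisons with 7 days. In BE2C, replicates 3, 4 and 5 in controls and at 24 h, and 4 and 5 at 7 days, resembled each other more than other libraries did. Summing replicates 3, 4 and 5 in every group, 7 days included, changed no call of a member made without a block. Gene positions follow a GENCODE annotation on GRCh37, and promoter sequences RefSeq on GRCh38.p14. Some genes that the rule names are not reported here.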

Additional observations from a re-analysis of the deposited data

Results flagged for a closer look

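Of 84 groups of member and treatment examined for a library far from the other 4, 7 had one, where chance alone gives about 1 in 20. In IMR-32 these were replicate 5 for *RARB* at 24 h (0.752 CPM), for *RARG* and *RXRA* at 5 days (19.9 and 49.8 CPM) and for *SOX4* in the control and at 24 h (318 and 512 CPM). In BE2C they were replicate 2 at 24 h for *RARB* (2.63 CPM) and *RXRA* (32.3 CPM). Over the 30 combinations of member and treatment in IMR-32, replicate 5 lay below the other 4 replicates in 16, above them in 7 and within their range in 7.

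Responses differed between lines by a called amount in 10 instances (log2 differences in the fit of all libraries). At 24 h they were *MEIS1*, at -0.55 for BE2C minus IMR-32 and 0.71 for IMR-32 minus SH-SY5Y. At the longer time, BE2C minus IMR-32 gave -5.36 for *CRABP1*, -0.76 for *MEIS1*, 1.01 for *RARG* and 0.59 for *SOX4*. IMR-32 minus SH-SY5Y gave 3.62 for *CRABP1*, -1.48 for *CRABP2*, -1.29 for *RARB* and -0.91 for *RARG*.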

How the results depend on the processing

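No member changed direction in a called result under any alternative run; of the values of single genes under alternatives, 3113 stayed on their side of the threshold, 80 lost a call and 62 gained one. Adjusted p alone, without the limit of 0.5, called 5 members in BE2C and 5 in SH-SY5Y at 24 h, 6 in SH-SY5Y at 5 days, 2 in the 24 h difference between BE2C and IMR-32 and 1 in the longer difference between BE2C and SH-SY5Y. The replicate block called 5 in IMR-32 at 24 h. Beyond the calls given with the results it changed 1, *RARB* between 7 days and 24 h in BE2C (-0.59, adjusted p 0.034), where not every pair of same-numbered libraries correlated above 0.1. With replicates 3, 4 and 5 summed and no block that value was -0.47 ± 0.37 (adjusted p 0.33), not called. With the block within each line, added after the data were seen, the 24 h difference between BE2C and IMR-32 had 2 calls and the longer difference between BE2C and SH-SY5Y 1, *CRABP1* (-1.78, adjusted p 0.00088), again in a comparison where the BE2C numbers did not all correlate. In the 24 h difference between BE2C and IMR-32 there were 0 calls with library size alone and 0 with no filter. The main fit called 4.49% of all genes there, and the shares in those other fits are not given here.

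Leaving out replicates moved the count of members called to 2 to 4 in IMR-32 at 24 h, 3 to 6 at 5 days and 2 to 6 between those times, to 1 to 2 in SH-SY5Y at 24 h and 1 to 3 between its treated times. For differences of response it was 0 to 2 (24 h, BE2C and IMR-32), 3 to 7 and 0 to 1 (longer, BE2C with IMR-32 and SH-SY5Y) and 2 to 4 (longer, IMR-32 and SH-SY5Y). With all replicates 18.3%, 32% and 19.6% of all genes were called in those IMR-32 comparisons, and 21.5% and 16.7% in those of SH-SY5Y. For the differences of response the shares were 4.49%, 23.9%, 21.2% and 20.8%, in the same order. Most shares in the fits with libraries left out are not given here, so these ranges are not read against them. Without a filter, *CRABP1* in IMR-32 at 5 days was 2.24 (adjusted p 0.074) and *SOX4* at 24 h 0.79 (adjusted p 0.052), both uncalled. Scaling by library size alone shifted the median of all genes by -0.19 and -0.18 in untreated BE2C and IMR-32 against SH-SY5Y, and upper quartile scaling by 0.11 in BE2C at 7 days; no other shift passed 0.1. With library size alone the untreated BE2C and SH-SY5Y difference was 0.45 for *RXRA* (0.65 with TMM) and 1.004 for *CRABP1* (1.21), both uncalled. The cause of these changes was not tested. *RARB* in BE2C rests on few reads, and *RXRG* outside IMR-32 on almost none, so no response of *RXRG* could be measured in those lines.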

Other observations

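Each member was set beside the genes whose levels followed it most closely over the 45 libraries, among 12556 genes tested in all 3 lines (Pearson r of log2(CPM + 1), centred within each line). The libraries share treatments, so these values describe patterns and carry no test. *SOX4* had the closest followers, *PGPEP1* (0.94), *DCTN2* (0.94) and *SAT2* (0.93). *RARG* was followed by *SCPEP1* (0.89), *KDELR1* (0.84) and *FCGRT* (0.83), and *RXRA* by *IGFBP4* (0.85), *BLMH* (0.84) and *NIN* (0.83). *RARB* had *FAR2* (0.85), *B4GALT4* (0.82) and *MANSC1* (0.82), and *CRABP1* had *ARRDC3* (0.83), *EPPK1* (0.81) and *FRMD6* (0.81). *MEIS2* had *THAP7* (0.80), *FUZ* (0.80) and *CENPH* (0.78), and *RARA* the translation genes *EIF4B* (0.78), *EIF3H* (0.77) and *RPL14* (0.76). *CRABP2* had *PCOLCE* (0.78) and *COL1A1* (0.77), genes of collagen and its processing, then *ACOT13* (0.75), and *MEIS1* had *GOLM1* (0.72), *EFNA5* (0.70) and *STX2* (0.70). Among the members themselves the values farthest from 0 were -0.61 between *SOX4* and *RXRA*, 0.58 between *RXRA* and *MEIS2*, -0.57 between *RARG* and *CRABP1* and 0.57 between *CRABP1* and *MEIS1*.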
